A study of Caenorhabditis elegans with 8 samples.

Results

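The 31 rps genes of *Caenorhabditis elegans*, rps-0 to rps-30, encode proteins of the small subunit of the cytosolic ribosome. They were taken by their sequence names, B0393.1 for rps-0 through C26F1.4 for rps-30, from a table of 25509 genes and 1541 editing-enriched regions (EERs, stretches of the genome where the study found clustered editing of double-stranded RNA). All 31 were found, and each symbol matched the annotation. The study sequenced RNA of whole worms of strain Bristol N2, with no transgene or mutation named in the labels, at 4 stages: mixed-stage embryos, early larvae (L1-L2), late larvae (L3-L4) and young adults. At each stage there was 1 sample of RNA immunoprecipitated with the J2 antibody against double-stranded RNA (dsRIP) and 1 sample of total RNA, which makes 8 samples. Eggs were either collected as embryos or left to hatch without food at 20 °C and then grown in liquid culture, to 6 to 20 h for L1-L2, 28 to 42 h for L3-L4 and 50 to 54 h for young adults. Each larval sample was a mix of 5 parts of each of the populations between molts and 2 parts of the molting one, so a larval value is an average over those ages. One title reads L4-L4, and that dsRIP sample was taken as L3-L4 from its stage label. Table columns named Input were taken as total RNA. Each sample had 3 numbered columns, and the labels do not say whether these came from separate cultures. The columns were therefore averaged, an SD over them may be technical, and n is 1 sample per stage and RNA preparation.

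The small subunit binds the messenger RNA and reads its codons, while the large subunit joins the amino acids. A single copy of each of its proteins is built into a small subunit, together with ribosomal RNA. The genes for both subunits are transcribed at high levels in growing cells. In worms, ribosomes that the mother places in the egg carry much of embryonic translation, and larvae make new ones as they feed and grow. Several worm and vertebrate ribosomal protein genes also hold small nucleolar RNAs (snoRNAs) in their introns, which guide the modification of ribosomal and other RNAs. Roles named below for single proteins are those known from yeast and mammalian ribosomes.

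The rps genes lie on 5 of the 6 chromosomes. Chromosome I holds 8, II holds 1, III holds 9, IV holds 10 and V holds 3, and the X chromosome holds 0, although 14.0% of the protein-coding genes of the table are on X. They are short genes, with an exonic length of 317 bp (rps-29) to 1019 bp (rps-0). These lengths, and all read counts given here, were worked out from the FPKM values. Levels are in FPKM, fragments scaled to exonic length and library size, so that genes of different length can be compared within a sample. Each rps gene held 4684 to 30837 reads over the 8 samples, and the lowest count in 1 sample was 173 reads (rps-26). All 31 passed the filter for testing, which asked for 2 or more of the 8 samples to have an FPKM of 1 or more.

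The columns held 348060 to 914394 reads each. Ribosomal RNA took 3.08% to 7.53% of the reads in the dsRIP samples and 2.03% to 3.46% in the total RNA samples. Marker genes followed the stage labels: the summed FPKM of 3 adult genes (vit-2, vit-5, col-19) was 2756 in total RNA of young adults, against 1.73 to 5.50 in total RNA of the other stages. rncs-1, a non-coding RNA that folds into a long hairpin, had 748, 795, 483 and 620 FPKM in dsRIP of embryos, L1-L2, L3-L4 and young adults, and 206, 263, 278 and 473 FPKM in total RNA. Its level was higher in dsRIP at every stage (log2 ratio 1.16, adjusted p = 0.0837, limma with Benjamini-Hochberg adjustment over all features), but the difference did not pass 0.05.

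Together the 31 genes made up a large share of the messenger RNA. As a percent of the summed FPKM of protein-coding genes, they took 3.27 ± 0.18%, 11.4 ± 0.99%, 10.7 ± 0.97% and 7.56 ± 0.94% in dsRIP of embryos, L1-L2, L3-L4 and young adults. In total RNA they took 2.37 ± 0.42%, 8.83 ± 1.12%, 8.91 ± 0.81% and 6.54 ± 1.01% (SD over 3 columns in each case). This share was lowest in embryos and highest in larvae in both preparations, and at each stage it was higher in dsRIP than in total RNA, in young adults by about the SD of the columns. With all genes in the denominator, and with reads in place of FPKM, the shares were lower, but embryos again had the lowest.

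Proteins that sit in the ribosome in equal numbers came from messenger RNAs at unequal levels. Within a sample the highest rps gene was 5.15 to 10.7 times the lowest. rps-17, rps-9 and rps-8 held the first 3 places in all 8 samples, and rps-2 and rps-30 were among the last 3 in 6 and 5 of 8 samples. rps-17 or rps-9 was the highest in each sample. The lowest gene differed between samples: it was rps-2, rps-14, rps-18 or rps-30, and 8 genes were among the last 3 in at least 1 sample. rps-16 ranked anywhere between 6 and 23.

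**Figure D1:**
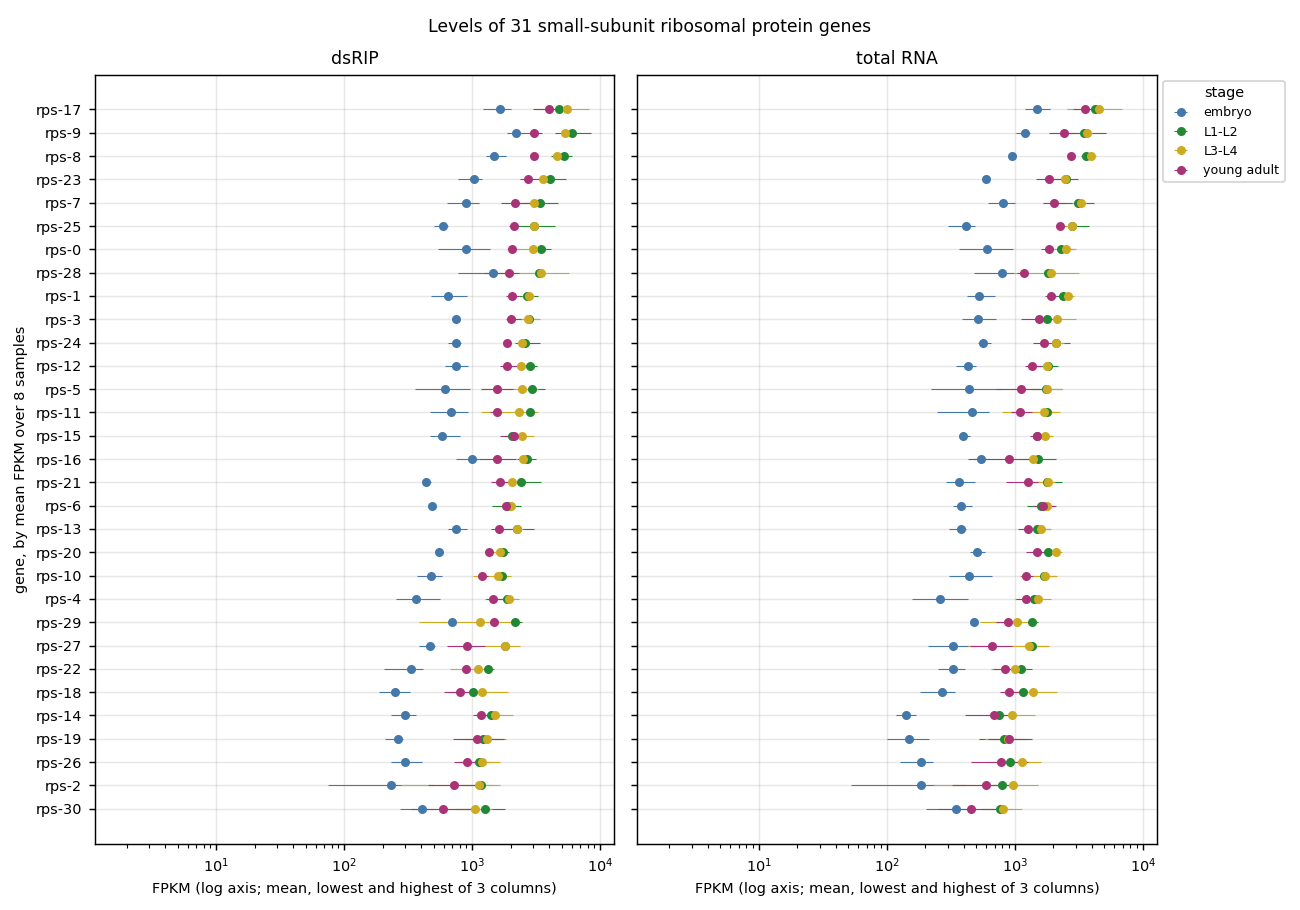
Level of each rps gene in FPKM (log axis) in dsRIP (left) and total RNA (right), with genes ordered by their mean over 8 samples. Points are the mean of the 3 columns of a sample, coloured by stage, and lines run from the lowest to the highest column: embryos sit left of the later stages in every row, and rps-17, rps-9 and rps-8 lie furthest right.

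rps-17 (T08B2.10, ce10 chrI:6220091-6220768), which encodes a protein of the head of the subunit, had the highest mean, 3713 FPKM over 8 samples. It stood at 1648 ± 409, 4751 ± 285, 5462 ± 2613 and 3978 ± 901 FPKM in dsRIP of embryos, L1-L2, L3-L4 and young adults. The total RNA levels were 1507 ± 346, 4273 ± 276, 4557 ± 2149 and 3528 ± 649 FPKM. Embryos were lowest in both preparations, and the L3-L4 columns spread widely. rps-9 (F40F8.10, chrII:11125310-11126310), whose protein helps shape the messenger RNA entry channel, had 2204 ± 566, 6007 ± 2120.3, 5358 ± 203 and 3063 ± 365 FPKM in dsRIP, in the same stage order. Its total RNA values were 1199 ± 150.5, 3503 ± 1473, 3695 ± 316 and 2432 ± 610.0 FPKM. At each stage the dsRIP sample was above the total RNA sample. rps-8 (F42C5.8, chrIV:7312970-7313855), a protein of the body of the subunit, had 1482 ± 301, 5252 ± 1015, 4620.4 ± 507 and 3054 ± 92.4 FPKM in dsRIP. Its total RNA samples held 957 ± 30.6, 3611 ± 442, 3973 ± 498 and 2773 ± 108 FPKM, so its larval levels were again the highest.

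At the other end, rps-30 (C26F1.4, chrV:7776557-7777359) had the lowest mean, 711.8 FPKM. Its product is made as a fusion with a ubiquitin-like protein in mammals. It had 406 ± 120.4, 1254 ± 534, 1061 ± 414 and 587 ± 411 FPKM in dsRIP of embryos, L1-L2, L3-L4 and young adults, and 350.0 ± 132, 775 ± 208, 807 ± 295 and 453 ± 251 FPKM in total RNA. The young adults differed from the embryos by less than the SD of their own columns in both preparations. rps-2 (C49H3.11, chrIV:7925336-7926386), a core protein near the messenger RNA entry site, had 233 ± 237, 1166 ± 323, 1127 ± 739.6 and 726 ± 466 FPKM in dsRIP. Its total RNA values were 187 ± 191, 798 ± 281, 976 ± 666 and 592 ± 345 FPKM, and in embryos the SD was larger than the mean. rps-26 (F39B2.6, chrI:14759907-14760652), which lies at the messenger RNA exit, had 299 ± 92.9, 1125 ± 341, 1197 ± 439 and 914 ± 298 FPKM in dsRIP, and 184 ± 51.7, 921 ± 287, 1146 ± 407 and 782 ± 431 FPKM in total RNA. Embryos had the lowest value of the 4 stages for each of these genes.

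The spread between columns differed strongly from gene to gene. The median coefficient of variation over the 31 genes was 17.2% to 30.2% in the dsRIP samples and 21.4% to 30.8% in the total RNA samples, and L3-L4 had the largest in both. rps-2 had 119.1, 75.1 and 505 FPKM in columns 1, 2 and 3 of embryo dsRIP, and 102, 53.0 and 406 FPKM in the same columns of embryo total RNA. Column 3 was far above the others in both preparations. In L3-L4, rps-28 had 5756, 1519.8 and 3023 FPKM in dsRIP and 3165, 992 and 1618 FPKM in total RNA, and column 1 was the highest in both. rps-27 in L3-L4 went the other way, with column 1 the lowest: 721, 2297 and 2382 FPKM in dsRIP, and 429, 1858 and 1585 FPKM in total RNA. The same-numbered columns of dsRIP and total RNA thus moved together for these genes, which were picked to show the spread after their values were seen.

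**Figure D2:**
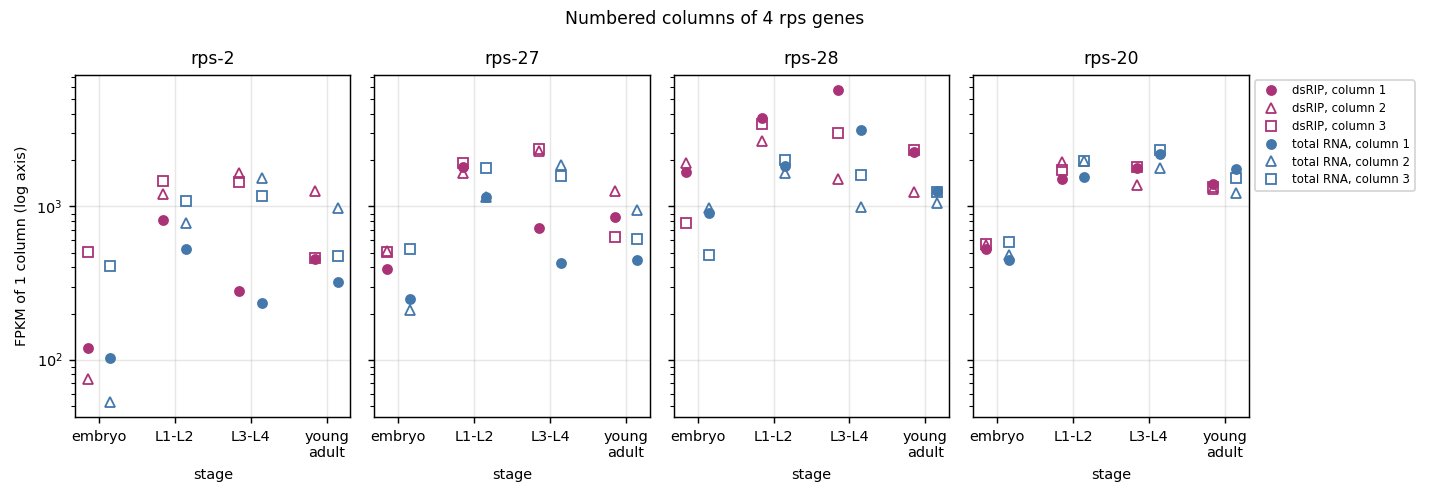
FPKM (log axis) of rps-2, rps-27, rps-28 and rps-20 in each of the 3 numbered columns of the 4 stages, with dsRIP in red left of total RNA in blue. Columns with the same number take the same order in both preparations for rps-2 in embryos and for rps-28 in L3-L4, while the columns of rps-20 lie close together.

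The comparison between stages asked how the levels of these genes differed in larvae and young adults from those in embryos. With 1 sample per stage there is no test over samples, so genes were counted when log2(FPKM + 1) differed by at least 1, a 2-fold difference. In dsRIP of L1-L2, 31 of 31 rps genes were at least 2-fold higher than in embryos, where 26.5% of all 20628 features tested were. In dsRIP of L3-L4 the count was 30 of 31 (23.2% of all features), and in young adults it was 26 of 31 (24.5%). In total RNA the counts were 31 of 31 in L1-L2 (28.1% of all features), 31 of 31 in L3-L4 (24.2%) and 27 of 31 in young adults (23.9%). No rps gene was at least 2-fold lower than in embryos at any later stage, where 5342 to 6368 of all 20628 features were.

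The median log2 difference of the 31 genes from embryos in dsRIP was 1.92 in L1-L2, 1.76 in L3-L4 and 1.32 in young adults, which are 3.78-, 3.38- and 2.50-fold. In total RNA the medians were 1.96, 2.05 and 1.58, which are 3.88-, 4.14- and 2.98-fold. The medians of all features tested lay between -0.03 and 0.00 in these 6 comparisons. With the medians of all features set equal in every sample, the median difference of all features from embryos was -0.11 to 0.42 and that of the rps genes 1.75 to 2.23. Quantile normalisation lowered the rps median in all 6 comparisons. In dsRIP it became 1.75, 1.56 and 1.11 in L1-L2, L3-L4 and young adults, with 30, 29 and 20 genes at least 2-fold higher. In total RNA it became 1.39, 1.30 and 0.95, with 27, 26 and 13 of 31 genes at least 2-fold higher. Of all features 25.6% to 27.1% were at least 2-fold higher under that setting.

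The step between late larvae and young adults was small and went the other way. The median log2 difference of young adults from L3-L4 was -0.46 in dsRIP and -0.48 in total RNA, with 1 gene above 0 in each (rps-29 at 0.36 in dsRIP and rps-19 at 0.02 in total RNA). No rps gene was at least 2-fold lower in young adults than in L3-L4, against 19.3% of all features in dsRIP and 20.1% in total RNA. Between L3-L4 and L1-L2 the medians were -0.06 in dsRIP and 0.08 in total RNA.

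Other tissues' markers differed along the same stages. The summed FPKM of 4 body muscle genes in total RNA was 550.2 in embryos, 2218 in L1-L2, 2526 in L3-L4 and 1870 in young adults, and that of 3 intestinal genes was 64.4, 222, 288 and 129. The 5 germline and early embryo genes gave 262, 47.7, 215 and 601, the 4 neuronal genes gave 199, 305, 160.3 and 111, and the 3 epidermal genes gave 344, 208, 229 and 30.4. All of the 19 tissue markers were detected in total RNA of at least 1 stage, and rol-6 was listed at 0 in embryo total RNA. The muscle and intestine sums were lowest in embryos, as the rps levels were, but single markers were not: elt-2 had 20.1, 13.4, 13.9 and 7.54 FPKM and myo-3 had 64.2, 141, 97.7 and 46.4 FPKM in total RNA of the 4 stages. Their part in the rps differences was not tested, and in whole animals a different share of cells of a type cannot be told apart from a different RNA level per cell.

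**Figure D3:**
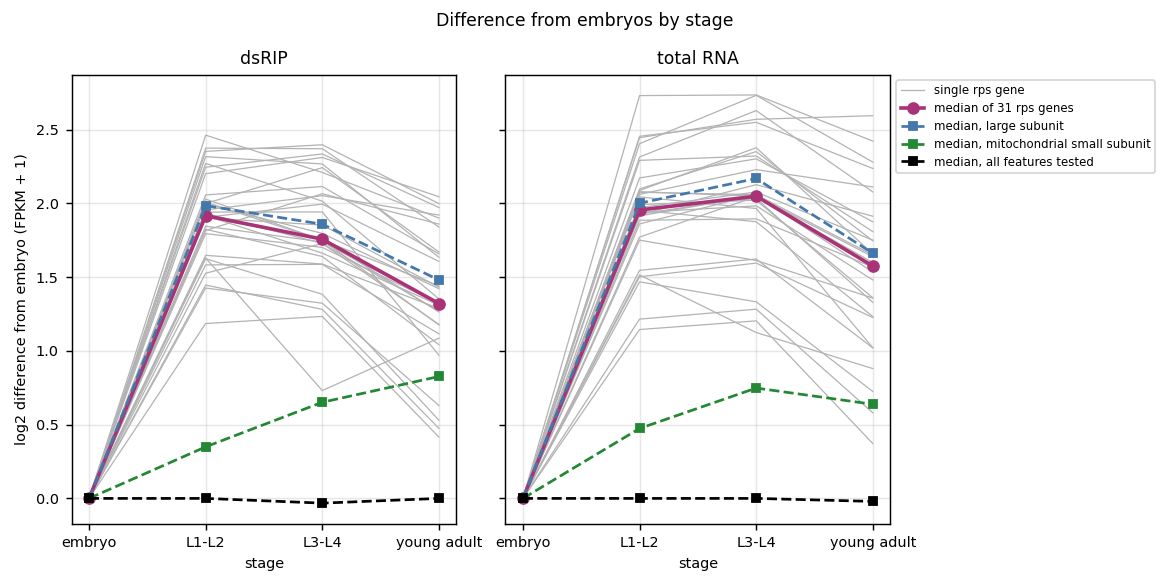
Log2 difference from embryos of log2(FPKM + 1) at each stage, in dsRIP (left) and total RNA (right), for each rps gene (grey lines) and for medians of the rps genes, the large-subunit genes, the mitochondrial small-subunit genes and all features tested. The rps median stands at 1.96, 2.05 and 1.58 in total RNA of L1-L2, L3-L4 and young adults, next to the large-subunit median and above the mitochondrial one.

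Single genes departed from this median in both directions. rps-25 (K02B2.5, chrIV:5947024-5947595), a head protein needed in yeast and human cells for some viral modes of initiation, had 591 ± 78.5, 3068 ± 1235, 3059 ± 188 and 2117 ± 172 FPKM in dsRIP of embryos, L1-L2, L3-L4 and young adults. In total RNA it had 420.0 ± 104, 2794 ± 878, 2803 ± 287 and 2256 ± 73.8 FPKM. Its log2 difference from embryos in total RNA was 2.73 in L1-L2 and 2.42 in young adults, the largest and the second largest of the 31 genes at those stages. rps-19 (T05F1.3, chrI:9625048-9625998), whose human counterpart is mutated in Diamond-Blackfan anaemia, had 262 ± 45.1, 1209.7 ± 392, 1306 ± 512 and 1086 ± 610.0 FPKM in dsRIP. The total RNA samples held 149.6 ± 58.6, 819.8 ± 359.8, 894 ± 347 and 909 ± 392 FPKM of it. Its difference in total RNA of young adults was the largest of the 31, at 2.60, and in total RNA it alone was as high in young adults as in L3-L4. rps-4 (Y43B11AR.4, chrIV:7083682-7084673), a protein of the body of the subunit, had 365 ± 173, 1866 ± 335, 1926 ± 582 and 1459.9 ± 237 FPKM in dsRIP, and 259.5 ± 149, 1428 ± 247, 1525 ± 473 and 1227 ± 214 FPKM in total RNA. Its difference from embryos in total RNA of L1-L2 was 2.46.

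In total RNA of L1-L2 and of young adults, rps-30 and rps-28 had the smallest differences. rps-30 differed from embryos by 1.14 in L1-L2 and by 0.37 in young adults. Without column 2 its young adult difference was -0.03 in dsRIP and -0.07 in total RNA, so its sign there rested on that column. rps-28 (Y41D4B.5, chrIV:1659342-1660010), a small protein near the messenger RNA exit, had 1459 ± 605, 3320.0 ± 587, 3433 ± 2148 and 1947 ± 607 FPKM in dsRIP. In total RNA it had 790.4 ± 272, 1837 ± 189, 1925 ± 1118 and 1182 ± 116 FPKM, and it differed from embryos by 1.22 in L1-L2 and by 0.58 in young adults. In dsRIP its young adult difference was 0.42, and -0.04 without column 3. In L3-L4 the smallest difference was that of rps-29, at 0.73 in dsRIP, where it alone was under 2-fold, and at 1.12 in total RNA. The other genes under 2-fold in young adults were rps-9, rps-16 and rps-27 in dsRIP and rps-16 and rps-29 in total RNA. Across the 31 genes, the embryo level and the young adult difference in total RNA had a Spearman rho of -0.55. This is a description with no test, and both measures contain the embryo sample.

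The comparison of dsRIP with total RNA asked which RNAs were recovered by the antibody against double-stranded RNA. Of the 31 rps genes, 8 were higher in dsRIP and 0 lower at an adjusted p under 0.05 (limma on log2(FPKM + 1) of 8 samples with stage as a block, Benjamini-Hochberg over all 20628 features). Among all features 2.11% were higher and 2.12% lower, and among the 19091 genes alone 0.754% were higher. At an unadjusted p under 0.05, 23 rps genes were higher and 1, rps-18, was lower, where 9.37% of all features were higher and 13.7% lower. The median log2 ratio of the rps genes was 0.38, against -0.08 over all features and -0.12 over genes. The ratio was above 0 for 29 of 31 rps genes, for 42.2% of all features and for 38.0% of genes. The rps median was 0.32 with equal medians and 0.63 under quantile normalisation. The rps genes are abundant, so they were also set beside the 189 other genes at or above the lowest rps mean. Of those, 11.1% were higher and 19.6% lower, with a median ratio of 0.06. All calls were lost when any 1 of the 4 stage pairs was left out (0 rps genes at an adjusted p under 0.05, and 17 to 20 higher at an unadjusted p under 0.05), and likewise without the stage block (0, and 0 unadjusted) and without the variance trend (0, and 17 unadjusted).

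rps-14 had the largest ratio. It encodes a protein of the platform of the subunit (F37C12.9, chrIII:7178631-7179544), and in dsRIP of embryos, L1-L2, L3-L4 and young adults it had 297 ± 67.2, 1410.4 ± 328, 1501 ± 516 and 1167 ± 167 FPKM. Its total RNA samples held 141 ± 26.9, 753 ± 143, 946 ± 431 and 690.5 ± 270.2 FPKM. The dsRIP sample was above its total RNA partner at all 4 stages, and the log2 ratio was 0.85 ± 0.09 (SE, limma adjusted p = 0.0223), or 1.80-fold. rps-16 (T01C3.6, chrV:15000001-15000577), whose tail reaches toward the transfer RNA, had 1004 ± 224, 2699.7 ± 439.7, 2514 ± 136 and 1554 ± 575 FPKM in dsRIP. In total RNA it had 549 ± 79.0, 1519.9 ± 521, 1384 ± 118 and 907 ± 537 FPKM, and its ratio was 0.83 ± 0.08 (SE, limma adjusted p = 0.0170). The ratio varied little between stages, from 0.78 in young adults to 0.87 in embryos. rps-28, with the values given above, had a ratio of 0.82 ± 0.09 (SE, limma adjusted p = 0.0222) and was also higher in dsRIP at all 4 stages.

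The other 5 genes that passed had smaller ratios. They were rps-23, a protein of the decoding centre (0.63, adjusted p = 0.0413), rps-11, a body protein (0.54, 0.0392), rps-5, a head protein at the messenger RNA exit (0.53, 0.0497), rps-15, a head protein (0.50, 0.0403), and rps-27, which binds zinc (0.46, 0.0389), all by limma and adjusted over all features. Each was higher in dsRIP at all 4 stages, as were 26 of the 31 genes. Some genes with ratios of this size had larger standard errors and did not pass: rps-9 had 0.63 ± 0.14 (adjusted p = 0.0779) and rps-13 had 0.59 ± 0.13 (adjusted p = 0.0733), by the same limma fit.

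The 3 smallest ratios belonged to rps-18, rps-20 and rps-10, which encode head proteins, and none passed. rps-18 (Y57G11C.16, chrIV:14825645-14826428) had 251 ± 69.5, 1008 ± 333, 1194 ± 624 and 803 ± 271 FPKM in dsRIP, and 269.5 ± 81.7, 1158 ± 260.3, 1379.8 ± 672 and 907 ± 217 FPKM in total RNA. It was the only gene of the 31 with the dsRIP sample below the total RNA sample at all 4 stages (log2 ratio -0.17 ± 0.07, limma adjusted p = 0.212). rps-20 (Y105E8A.16, chrI:14468309-14469342) had 552 ± 19.1, 1733 ± 220.1, 1664 ± 241 and 1350.1 ± 47.2 FPKM in dsRIP, and 505 ± 69.5, 1838 ± 235.0, 2108 ± 298 and 1507 ± 269.5 FPKM in total RNA. Only its embryo sample was higher in dsRIP, and its ratio was -0.11 ± 0.10 (limma adjusted p = 0.576). rps-10 (D1007.6, chrI:4583874-4584746) had 479 ± 103, 1725 ± 161, 1602 ± 514 and 1196 ± 123 FPKM in dsRIP, and 438 ± 195, 1682 ± 353, 1736 ± 555 and 1225 ± 151 FPKM in total RNA. Its levels were nearly equal in both preparations, with a ratio of 0.00 ± 0.08 (limma adjusted p = 0.985).

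**Figure D4:**
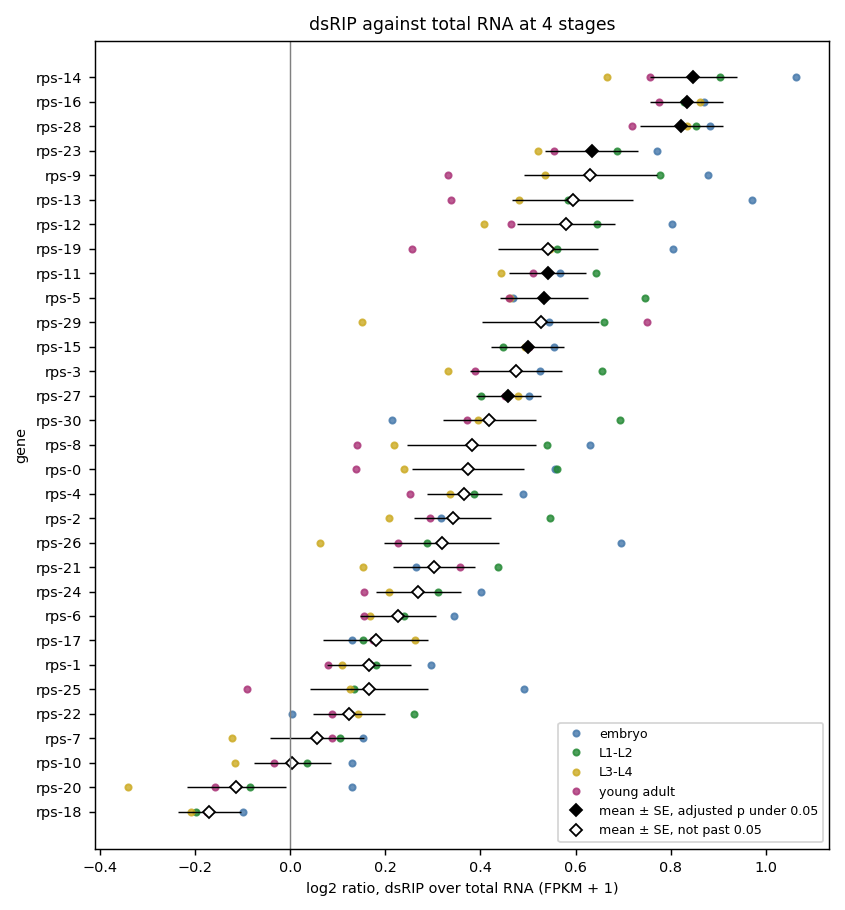
Log2 ratio of dsRIP over total RNA of log2(FPKM + 1) for the 31 rps genes, with the 4 stages as coloured points and the fitted mean ± SE as diamonds, filled where the adjusted p was under 0.05. The 8 filled diamonds run from 0.46 (rps-27) to 0.85 (rps-14), and rps-18 and rps-20 lie below 0.

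The ratio differed somewhat between stages. Its median over the 31 genes was 0.50 in embryos, 0.54 in L1-L2, 0.26 in L3-L4 and 0.29 in young adults. In that order 30, 29, 27 and 27 genes were above 0, where 40.3%, 37.3%, 36.2% and 40.7% of all features were. The ratio was lower than in embryos for 21 of 31 genes in L1-L2, 28 in L3-L4 and 26 in young adults, where 54.1%, 53.6% and 49.0% of all features were. The only test of this change treats the numbered columns as replicates. It also rests on a pairing by column number that was not taken for the samples. In young adults, column 1 of both preparations correlated at only 0.0069 over the 220 genes at least as abundant as the lowest rps gene. With a dsRIP effect per stage and a term for each pair of same-numbered columns in limma over 24 columns, 0 rps genes passed at any stage after adjustment, and 1, 4 and 6 of 31 had an unadjusted p under 0.05 in L1-L2, L3-L4 and young adults, beside 5.99%, 4.79% and 5.77% of all features. The ratio across the 31 genes was not ordered by exonic length (Spearman rho -0.09) or by mean level (rho 0.07), as a description with no test.

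None of the 1541 EERs overlapped the span of an rps gene, while 5.29% of the 15386 protein-coding genes tested overlapped an EER of the series-wide list. At that share few of 31 genes would overlap an EER. The rps spans are also short, from 498 bp (rps-21) to 1517 bp (rps-3), so the count is not read as a lack of EERs. Within 10 kb of an EER of that list lay 8 of the 31 rps genes (25.8%), against 19.9% of protein-coding genes. The nearest was 1128 bp from rps-22. The rps genes that were higher in dsRIP were therefore not counted over an EER.

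The spans of 13 rps genes overlapped another gene of the table. Of these overlapping genes 7 are snoRNAs, in 5 host genes, and in the WBcel235 annotation each lies within an intron of the host on the same strand. The host's FPKM is per exonic length, and the snoRNAs have rows of their own. Whether the counting used strand is not given in the sources used here, and reads of the host's unspliced RNA could stand in a snoRNA's row. Among all 135 snoRNA genes tested, 4 were higher and 25 lower in dsRIP, with a median log2 ratio of -0.62.

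The 3 snoRNAs that passed went in opposite directions in 2 hosts. F54E7.11 (chrIII:5679700-5679830), in an intron of rps-12, had 704 ± 692, 1259 ± 583, 1304 ± 1166 and 1564 ± 692 FPKM in dsRIP of embryos, L1-L2, L3-L4 and young adults. The total RNA samples had 90.6 ± 6.23, 309.8 ± 128, 289 ± 178 and 296 ± 128 FPKM. It was higher in dsRIP at every stage, with a log2 ratio of 2.38 ± 0.17 (SE, limma adjusted p = 0.0112). Its neighbour F54E7.10, in another intron of the same gene, had a ratio of 1.07 ± 0.34 that did not pass (limma adjusted p = 0.155). The host rps-12 (F54E7.2, chrIII:5679194-5680142), a protein of the beak of the head, had 754 ± 159.7, 2849 ± 430.2, 2388 ± 201 and 1871 ± 341 FPKM in dsRIP, and 432 ± 77.2, 1822 ± 396, 1802 ± 110.5 and 1357 ± 208 FPKM in total RNA. Its own ratio was 0.58 ± 0.10 (limma adjusted p = 0.0518), just outside the threshold.

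In rps-29 (B0412.4, chrIII:794289-795072), which encodes a zinc-binding head protein, both intronic snoRNAs passed. B0412.6 (chrIII:794394-794521) had 173 ± 164, 159 ± 106, 264 ± 109 and 246 ± 120.5 FPKM in dsRIP, and 779 ± 143, 3004 ± 1569.6, 2862 ± 759.6 and 3518 ± 2085 FPKM in total RNA. B0412.7 (chrIII:794737-794862) had 274 ± 194, 131 ± 29.6, 247 ± 117 and 337 ± 188 FPKM in dsRIP, and 690.1 ± 204, 3359 ± 1666, 4083 ± 686 and 3873 ± 234 FPKM in total RNA. Both snoRNAs were lower in dsRIP than in total RNA at every stage, and the log2 ratios were -3.41 ± 0.35 (limma adjusted p = 0.0206) and -3.39 ± 0.56 (limma adjusted p = 0.0463). The host went the other way without passing: rps-29 had 698 ± 112, 2163 ± 259, 1159 ± 825 and 1484 ± 69.2 FPKM in dsRIP, and 478 ± 19.3, 1368 ± 126, 1044 ± 477 and 881 ± 159 FPKM in total RNA, a ratio of 0.53 ± 0.12 (limma adjusted p = 0.0851). The remaining snoRNAs, in rps-4, rps-13 and rps-23, had ratios of 0.92, 0.21 and -0.19, and none passed. That in rps-4 rests on 41 reads in all. The other 8 overlapping genes are 7 protein-coding genes and a pseudogene, and none passed the test (the pseudogene was too low to be tested).

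**Figure D5:**
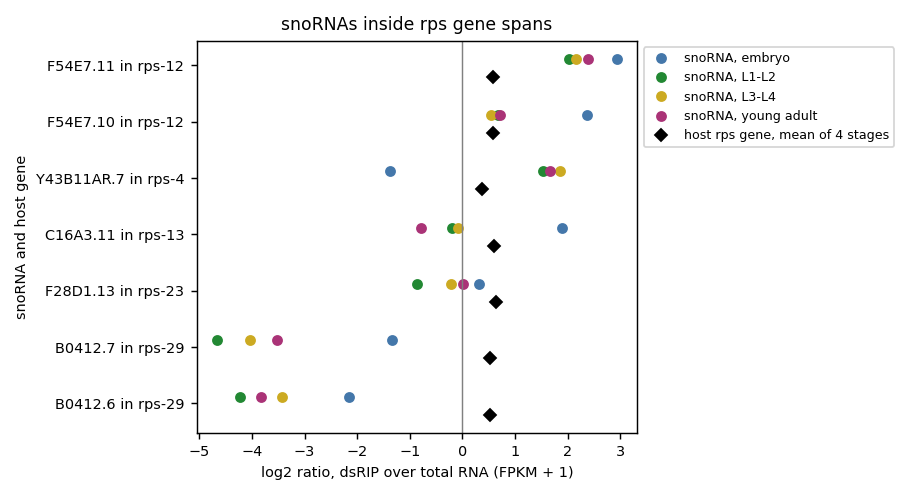
Log2 ratio of dsRIP over total RNA of log2(FPKM + 1) for the 7 snoRNAs inside rps genes (coloured points, 1 per stage) with the mean ratio of the host gene (black diamonds). F54E7.11 in rps-12 is above 2 at every stage and both snoRNAs of rps-29 are below -1 at every stage, while the hosts lie between 0.37 and 0.63.

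Other genes of the translation machinery were read from the same fit. Of 50 tested genes of the large subunit (rpl and rla genes), 11 were higher and 0 lower in dsRIP by limma (27 and 1 at an unadjusted p under 0.05), with a median ratio of 0.29, and their median differences from embryos in total RNA were 2.00, 2.17 and 1.66 in L1-L2, L3-L4 and young adults. Its most abundant members, rpl-41.2 and rpl-39, had ratios of 0.68 and 0.30 and did not pass. rack-1 and ubl-1, which encode the remaining proteins of the small subunit (ubl-1 as a fusion protein), had ratios of 0.21 and 0.28, with 0 of 2 passing by limma and 2 at an unadjusted p under 0.05. Both were at least 2-fold higher than in embryos at all 3 later stages in total RNA. The large-subunit medians thus stood close to those of the rps genes in both comparisons.

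For the mitochondrial ribosome, 1 of 29 mrps genes was higher and 4 were lower in dsRIP (3 and 11 at an unadjusted p under 0.05), with a median ratio of -0.20. In total RNA 3, 6 and 6 of them were at least 2-fold higher than in embryos in L1-L2, L3-L4 and young adults, with medians of 0.47, 0.75 and 0.64, and 28.1%, 24.2% and 23.9% of all features were. The difference between the mitochondrial and the rps genes was not tested. Their most abundant members went in opposite directions: mrps-33 was lower (-1.26 ± 0.17, limma adjusted p = 0.0336) and mrps-24 higher in dsRIP (0.58 ± 0.08, limma adjusted p = 0.0321). Of 40 mrpl genes 1 was higher, mrpl-12 (0.49 ± 0.07, limma adjusted p = 0.0321), and 4 were lower (4 and 17 at an unadjusted p under 0.05), while mrpl-36 had -0.20. The 6 elongation factor genes had a median ratio of 0.19 with 0 called by limma (3 higher at an unadjusted p under 0.05), and their median differences from embryos were 1.60, 1.83 and 1.94 in total RNA. eef-1A.1 and eef-2 led that list, with ratios of 0.39 and 0.38. Among 34 initiation factor genes 1 was higher and 1 lower by limma (10 and 6 at an unadjusted p under 0.05), with a median ratio of 0.06. Of all features 2.11% were higher and 2.12% lower by limma, and 9.37% and 13.7% at that unadjusted p. The most abundant members, iff-2 and iff-1, had ratios of 0.31 and 0.40 without passing. Among 14 ribosome biogenesis genes 0 were higher and 1 was lower by limma (1 and 6 at an unadjusted p under 0.05), with a median difference from embryos of 0.52, 0.50 and 0.57 in total RNA. Its leading members, fib-1 and nol-56, had ratios of 0.07 and 0.36 and did not pass.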

How the data were processed

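RNA of 8 samples was measured. The authors deposited FPKM values for 24 columns, 3 per sample, and 0 columns were left unmapped. Per the submitters' processing notes, Novoalign, bedtools 2.19.0, SAMtools 0.1.19 and ce10 were used, and per the labels' protocols libraries were stranded and made from fragmented RNA. The deposited region lists hold a score per region, and the score was not used. Read counts and exonic lengths were worked out from the steps between FPKM values. A gene's length was the smallest that gave whole reads in every column (within 0.05), and an EER's length was its span. For genes this rule makes every value whole by design. That 100.0% of 353858 values above 0 were whole reads is therefore no check for genes. Columns were averaged per sample, and limma 3.58.1 in R 4.3.3 was fitted (stage block, eBayes with trend) on log2(FPKM + 1) over 20628 features with an FPKM of at least 1 in at least 2 samples, Benjamini-Hochberg threshold 0.05. This scale understates changes of low genes. The script was tested on simulated data. Stages were compared by fold, without a test over samples. Symbols came by sequence name from WBcel235, or from RefSeq where it lacked the name, for 25092 of 25509 genes. Positions given here are those of ce10. WBcel235 exons and strands were used to place overlapping genes relative to the rps genes.

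The members and lists were chosen with earlier results of these data known. Named genes are the 3 highest and lowest by level, the 3 largest and smallest dsRIP ratios, the 2 largest and smallest differences from embryos in total RNA of L1-L2 and of young adults, hosts of an overlapping feature that passed, and the 2 most abundant members of each related list. The dsRIP fit was repeated with other pseudocounts (0.5, 5), unfiltered and with an FPKM minimum of 10, and after equalising sample medians or quantiles. It was also repeated leaving out the block or the variance trend, leaving out each stage pair, and on FPKM of summed reads. Over the 24 columns it was repeated with a stage block, with a term for each pair of same-numbered columns of a stage, and with voom on reads and a stage block. These fits over columns treat them as replicates, which may be technical. Stage differences were repeated leaving out each column, and tested by limma over 24 columns, which may be technical repeats. The test of the ratio between stages and the set of genes at or above the lowest rps mean were added after the data were seen.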

Additional observations from a re-analysis of the deposited data

Results flagged for a closer look

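For each of the 31 rps genes, the log2 ratio of dsRIP over total RNA was checked for a stage that stood apart from the other 3. Only rps-5 was marked: its ratio was 0.75 in L1-L2, against 0.47 in embryos, 0.46 in L3-L4 and 0.46 in young adults. The gap to the nearest stage, as a part of the whole range, was above the 95% critical value of Dixon's test for 4 values. Chance marks about 1 in 20 groups, and 1 of 31 was marked here.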

How the results depend on the processing

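Each stage and preparation had 1 sample, and the 4 stage pairs carried the dsRIP test, so the calls are fragile. With 1 stage pair left out, 0 to 0 features and 0 to 0 rps genes passed in either direction. Of all features (435 higher, 438 lower), 272 were higher and 237 lower with no filter, 13 and 10 with no stage block, and 106 and 30 with no trend. Over the 24 columns treated as replicates, which may be technical, 737 were higher and 1051 lower with a stage block. With voom over the same 24 columns the counts were 2226 and 1257. A filter of 10 gave 719 lower. Equal medians gave 454 higher and 651 lower, and quantile normalisation 410 and 248. Of the rps genes (8 higher), 3 were higher with no filter, 13 with a filter of 10, 0 with no stage block or no trend, and 14 with voom over the 24 columns. The shares of all features higher in these 5 settings were 1.01%, 4.48%, 0.063%, 0.514% and 10.8%. With a term for each pair of same-numbered columns of a stage, over 24 columns, 23 rps genes were higher and 1 lower (rps-18), and 1016 features were higher and 1457 lower. The rule used to pair the numbers asks for a correlation over 0.1 in every pair of same-numbered columns. Over the 220 genes at least as abundant as the lowest rps gene, 11 of 12 pairs passed (0.32 to 0.82 in embryos and larvae, 0.0069 to 0.51 in young adults, where not every column correlated best with its own number), and over the 31 rps genes 12 of 12 passed (0.18 to 0.96). As 1 pair failed over the abundant genes, the numbers were not taken to pair the samples. By limma over 24 columns, 25 to 31 of 31 rps genes were called against embryos at each later stage, all of them higher. Of all features 31.9% to 35.8% were called, in either direction. With a term for the column number, 26 to 31 rps genes were called, again all higher, beside 33.7% to 37.7% of all features in either direction. The cause of these changes was not tested.

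The sign turned for rps-7 with equal medians (-0.0036) and for rps-10 with equal medians (-0.0551). With 1 stage pair left out the rps-10 ratio ran from -0.038 (embryo pair) to 0.0436 (L3-L4 pair), and was -0.007 without the L1-L2 pair. With 1 column left out, the young adult difference from embryos ran in dsRIP from -0.0353 (column 3) to 0.9075 (column 2) for rps-28 and from -0.0283 (column 2) to 0.876 (column 3) for rps-30, and in total RNA from -0.0719 (column 2) to 0.7306 (column 3) for rps-30. Under quantile normalisation it turned in total RNA for rps-16 (-0.0261), rps-28 (-0.1695) and rps-30 (-0.0497), and 13 rps genes were at least 2-fold higher in young adults. The larval counts in total RNA were also lower under that setting, at 27 in L1-L2 and 26 in L3-L4. The rps share with all genes in the denominator was 1.91%, 6.16%, 5.88% and 4.59% in dsRIP by stage and 1.15%, 4.17%, 4.57% and 3.08% in total RNA. From reads it was 1.63%, 5.95%, 5.57% and 3.93% in dsRIP and 1.13%, 4.23%, 4.55% and 3.36% in total RNA.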
